A study of Bos taurus with 10 samples.

Results

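The genes described here belong to Toll-like receptor and NF-kappaB signalling in the liver of dairy cows. The list held 39 genes, from the receptors and their ligands through adaptors, kinases and transcription factors to target genes. A gene was measured where a probe set of the array, a group of short probes read as a single value, carried its symbol alone, and the probe set of highest mean over the 10 arrays stood for it. This gave 34 measured members among the 9155 genes named on the array. RELB, TNFAIP3, SOCS1, TLR1 and LY96 had no such probe set and were not analysed here.

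Liver biopsies came from Holstein cows, first calvers and older animals with an average parity of 2.6, in week 5 of lactation. All cows ate the same mixed ration, with concentrate according to milk yield, and a fat protected from the rumen. In the control group this was a control fat, and in the CLA group it supplied conjugated linoleic acid (CLA), the name for isomers of linoleic acid whose double bonds are conjugated, that is, separated by a single bond. Either fat made up 27.3% of a supplemental concentrate, of which each cow was given 630 g of dry matter daily. Feeding began in week 3 before calving and ended in week 14 of lactation. Each group had 20 cows, whose RNA was combined into 5 pools of 4 cows with 1 array per pool, so the spread given below is that between pools and the values of single cows are not seen. The question put to these arrays was which genes and pathways of the liver CLA feeding regulates in early lactation, a phase of metabolic and inflammatory load.

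Toll-like receptors are membrane proteins that bind microbial products. Most of them pass the signal through the adaptor MYD88 and IRAK kinases to TRAF6 and then to the IkappaB kinase complex, which releases NF-kappaB from its inhibitors so that it can enter the nucleus. Interleukin 1 uses the same adaptor and kinases, tumour necrosis factor reaches the same complex by its own receptor, and interleukin 6 acts on hepatocytes through STAT3, which SOCS3 restrains. In the liver, resident macrophages called Kupffer cells and the sinusoidal endothelium carry many of these receptors, and hepatocytes answer interleukin 1 and interleukin 6 with the acute phase response.

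After correction over all probe sets, 0 of the 34 members passed the test. The largest difference was that of NFKBIZ, which encodes IkappaB zeta, an atypical nuclear IkappaB protein that binds NF-kappaB on DNA and is needed for a set of late target genes. Its mean was 1.298-fold higher in the CLA pools, at an adjusted p of 0.418. Among central genes of this signalling, TNF, IL1B, IL6, NFKBIA, RELA and SOCS3 differed by 0.05 or less in either direction on the log2 scale. IL6 and SOCS3 were read among the dimmest 30% of probe sets, which limits what can be read from them. TLR4, NFKB1, MYD88 and STAT3 differed by -0.216, -0.094, -0.068 and -0.054.

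In limma with Benjamini-Hochberg adjustment over 24016 probe sets, 0 of the 34 members had an adjusted p under 0.05, and the same share of all genes (0%) passed. Every difference below is the CLA mean less the control mean, in log2 units, and expression values are log2 levels as deposited. At an unadjusted p under 0.05, limma counted 1 of 34 members, NFKBIZ (2.94%), against 8.5% of all 9155 genes (4.35% higher and 4.15% lower in the CLA pools). The unmoderated test counted 2, with IRAK1 added, against 9.24% of all genes. In 0 of 34 members did the 5 CLA pools lie wholly on a single side of the 5 control pools, while this held for 2.17% of all genes (1.47% with the CLA pools above and 0.699% with them below). A difference of 0.2 or more in either direction was found for 4 members (11.8%) and for 11.5% of all genes. With all 10 arrays the shares of members that stood out were thus near or under those of all genes. Without CLA pool 4 the limma count at the unadjusted threshold was 4 (11.8%), above the 7.36% of all genes in that fit. It was 3 without control pool 2 (9.45% of all genes) or control pool 3 (9.32%). It was 2 without control pool 4 (7.21% of all genes), control pool 5 (7.37%), CLA pool 2 (8.91%) or CLA pool 5 (9.14%). Members without overlap numbered 1 (NFKBIZ) without CLA pool 1 and 2 (MYD88 and IRAK1) without CLA pool 2. The share of all genes without overlap is not given for those fits.

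Of the members, 22 had a mean below the control mean, 11 had one above it and 1 was equal. Among all genes 53.2% lay below and 46% above. After subtraction of array medians the members split 17 to 17, and among all genes 3853 lay below and 5302 above. The median difference was -0.031 over the members and -0.01 over all genes. It was -0.0065 without control pool 2, -0.080 without control pool 5, -0.066 without CLA pool 2, -0.053 without CLA pool 4 and -0.0078 without CLA pool 5. The median SE of a member was 0.10.

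The intervals bound how large a difference in the measured values these pools could have hidden. For 32 of 34 members the 95% interval of limma, not adjusted for the number of genes, lay within 1.5-fold in either direction, and for 27 it lay within 1.3-fold. The same held for 95.0% and 75.8% of all genes. The 2 members whose interval reached beyond 1.5-fold were NFKBIZ, with an upper end of 1.56-fold, and PTGS2, with an interval down to 1.54-fold lower in the CLA pools.

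**Figure D1:**
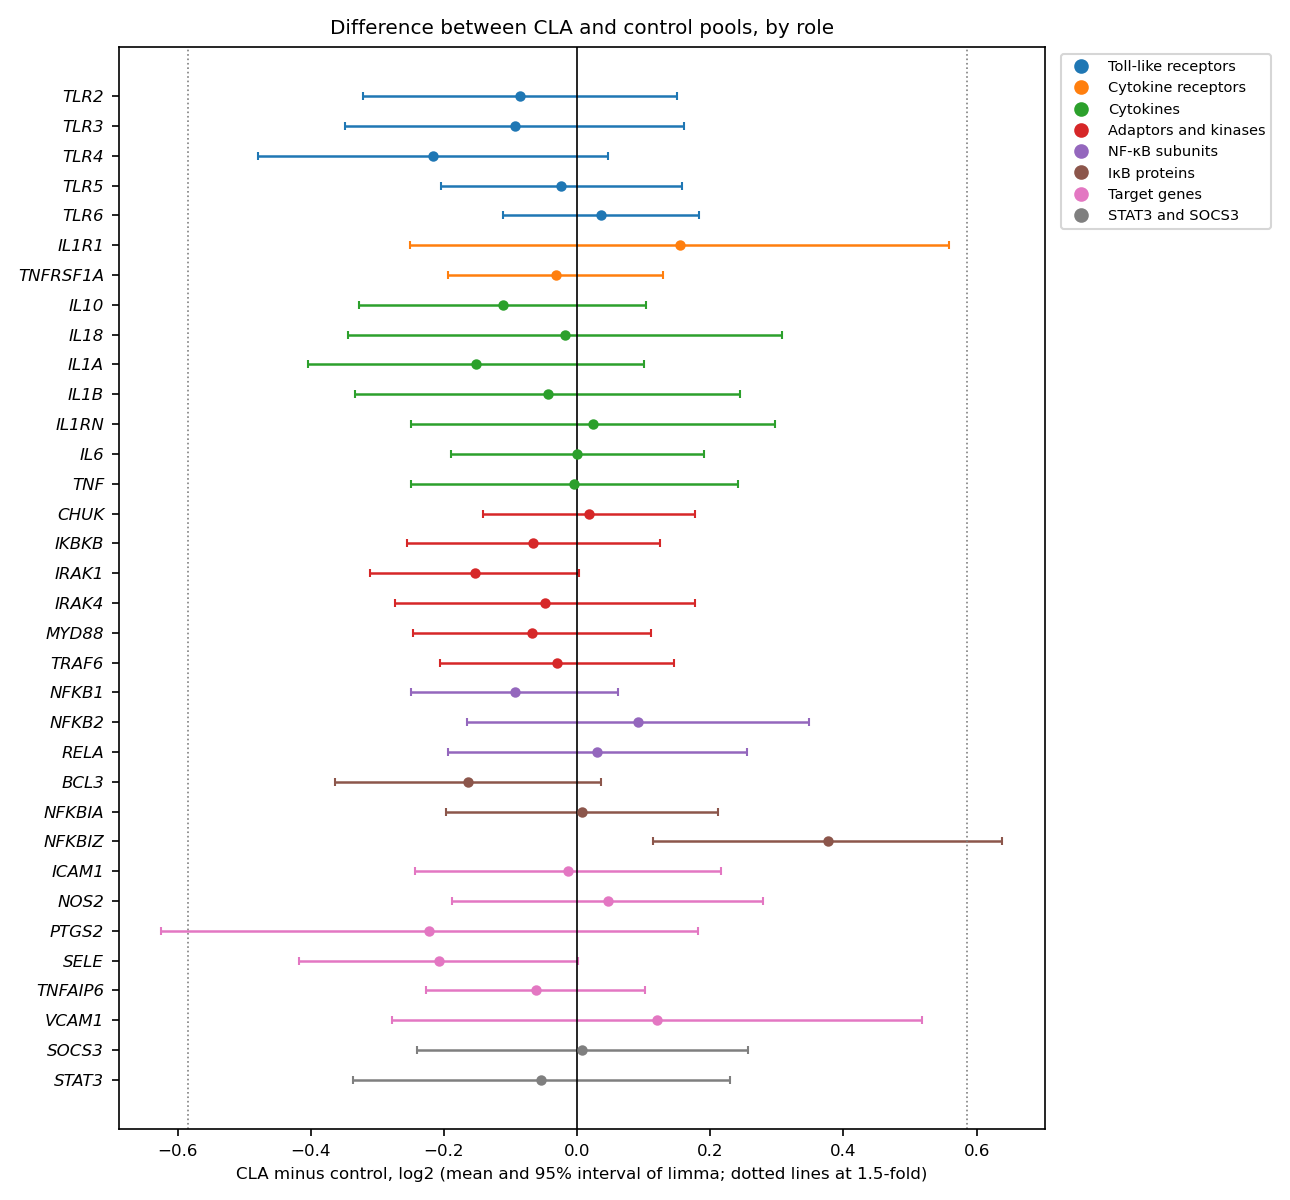
Difference of each of the 34 members, CLA minus control pools on the log2 scale (horizontal axis), with the gene on the vertical axis, coloured by role. Points are means and bars the 95% intervals of limma. Only the interval of NFKBIZ (0.11 to 0.64) lies clear of 0, and the dotted lines stand at 1.5-fold.

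The 5 measured Toll-like receptors differed by -0.22 to 0.04. TLR4 recognises bacterial lipopolysaccharide, the molecule that drives endotoxin responses in fresh cows. Its values in control pools 1 to 5 were 5.44, 5.85, 5.20, 5.60 and 5.47, and in CLA pools 1 to 5 they were 5.01, 5.29, 5.39, 5.49 and 5.30. Control pool 2 was the highest of all and CLA pool 1 the lowest, and the groups overlapped between 5.20 and 5.49. The difference was -0.22 ± 0.12 SE (unadjusted p = 0.0988 and adjusted p = 0.635 in limma). It stood at -0.13 without control pool 2 and at -0.29 without control pool 3, where the unadjusted p was the only 1 of 19 alternatives under 0.05 (0.0261).

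TLR2, which with TLR1 or TLR6 binds bacterial lipoproteins, had a control mean of 7.45 ± 0.20 (SD, n = 5) and differed by -0.09 ± 0.11 SE. TLR6 had a control mean of 7.54 ± 0.041 (SD, n = 5) and differed by 0.04 ± 0.068 SE, with the smallest SE of the members. TLR3, the receptor for double-stranded RNA, was read by 3 probe sets, which differed by -0.09, -0.20 and -0.06. TLR5, which binds flagellin, lay among the dimmest 30% of probe sets and differed by -0.02 ± 0.083 SE. Of the 5 receptors 4 had a lower mean in the CLA pools, and 3 did so under quantile normalization, cyclic loess normalization or centring on array medians. Of all 9155 genes 4873 had a lower mean, and 4999, 4850 and 3853 did so under those scalings in turn.

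Among the receptors for cytokines, IL1R1, the signalling receptor for interleukin 1, had a wide spread between pools. The control pools 1 to 5 stood at 9.97, 9.54, 10.24, 9.80 and 9.14, and the CLA pools 1 to 5 at 9.93, 10.06, 9.51, 10.16 and 9.80. Control pools held both the highest and the lowest value. The difference was 0.15 ± 0.19 SE, and it came to 0.0045 without control pool 5 and 0.28 without control pool 3. TNFRSF1A, the main receptor for tumour necrosis factor, had pools between 9.06 and 9.36 and differed by -0.03 ± 0.074 SE.

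The 7 cytokine genes, all measured, differed by -0.15 to 0.02. TNF, the gene of tumour necrosis factor, stood at 4.31, 4.66, 4.70, 4.91 and 4.88 in control pools 1 to 5 and at 4.84, 4.57, 4.67, 4.80 and 4.56 in CLA pools 1 to 5. All CLA pools lay inside the range of the control pools, and the difference was -0.004 ± 0.11 SE. Without control pool 1, the lowest of all, it was -0.0995, and without control pool 4, the highest, it was 0.051.

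IL1B, the main secreted form of interleukin 1, stood at 5.98, 6.19, 5.75, 6.29 and 5.82 in control pools 1 to 5. In CLA pools 1 to 5 it stood at 5.59, 6.11, 5.88, 6.21 and 6.02. CLA pool 1 was lowest and control pool 4 highest, and the remaining pools mixed. The difference was -0.04 ± 0.13 SE, and that of the second probe set was -0.01 ± 0.14 SE.

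IL1A, which acts through the same receptor, stood at 5.14, 5.14, 5.02, 4.94 and 5.22 in control pools 1 to 5 and at 4.74, 5.18, 4.60, 5.17 and 5.01 in CLA pools 1 to 5. CLA pools 1 and 3 lay below every control pool and the other 3 CLA pools lay within the control range. The difference was -0.15 ± 0.12 SE, with -0.09 ± 0.14 SE at the second probe set. It was -0.067 without CLA pool 3 (unadjusted p = 0.533), -0.10 without CLA pool 1 and -0.21 without CLA pool 2. IL1RN encodes the antagonist that blocks this receptor. It differed by 0.02 ± 0.13 SE.

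IL18, which is processed by the inflammasome like IL1B, stood at 7.31, 7.52, 7.11, 7.75 and 7.48 in control pools 1 to 5 and at 7.29, 7.89, 7.09, 7.49 and 7.32 in CLA pools 1 to 5. CLA pools held both the highest and the lowest value, and the difference was -0.02 ± 0.15 SE. IL10, an anti-inflammatory cytokine, differed by -0.11 ± 0.099 SE from a control mean of 4.76 ± 0.15 (SD, n = 5). The probe set of IL6 was among the dimmest 30%, with a mean of 2.99 in both groups and a difference of 0.00 ± 0.087 SE. The brightness of that probe set limits what can be read from it.

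The 6 adaptors and kinases had small errors, with a median SE of 0.081. IRAK1, the kinase recruited by MYD88, stood at 8.32, 8.30, 8.44, 8.52 and 8.31 in control pools 1 to 5 and at 8.21, 8.37, 8.19, 8.13 and 8.22 in CLA pools 1 to 5. CLA pool 2 alone reached into the control range. The difference was -0.15 ± 0.072 SE (unadjusted p = 0.0543 and adjusted p = 0.568 in limma), a level 1.11-fold higher in the control pools. Its unadjusted p was under 0.05 in 7 of 19 alternatives, among them those without control pools 2 or 5 or CLA pool 2, and the second, dimmer probe set differed by -0.08 ± 0.27 SE.

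MYD88, the adaptor itself, stood at 8.25, 8.23, 8.26, 8.32 and 8.22 in control pools 1 to 5 and at 8.07, 8.46, 8.21, 8.05 and 8.15 in CLA pools 1 to 5. CLA pool 2 was the highest of all, and the other 4 CLA pools lay below every control pool. The difference was -0.07 ± 0.082 SE, and it was -0.14 without CLA pool 2 and -0.034 without CLA pool 4. In IRAK4, the kinase upstream of IRAK1, CLA pool 2 was again the highest of the 10 (9.44), and the difference was -0.05 ± 0.10 SE.

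TRAF6, the ubiquitin ligase below the IRAK kinases, differed by -0.03 ± 0.081 SE. CHUK and IKBKB encode the catalytic subunits of the IkappaB kinase complex. They differed by 0.02 ± 0.073 SE and -0.07 ± 0.087 SE. Of the 6 genes of this step 5 had a lower mean in the CLA pools, 6 after quantile or cyclic loess normalization and 4 after subtraction of array medians. The counts over all genes are those given with the Toll-like receptors.

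The NF-kappaB subunits differed by less than 0.1. NFKB1, which gives the p50 subunit, stood at 7.96, 7.93, 7.78, 7.79 and 7.81 in control pools 1 to 5 and at 7.82, 7.83, 7.74, 7.81 and 7.60 in CLA pools 1 to 5. Control pools 1 and 2 were highest and CLA pool 5 lowest, and the difference was -0.09 ± 0.071 SE. RELA, the subunit that activates transcription, stood at 8.02, 8.22, 8.13, 7.72 and 8.11 in control pools 1 to 5 and at 7.94, 8.31, 7.97, 8.04 and 8.09 in CLA pools 1 to 5. Control pool 4 lay apart at the low end, the other pools mixed, and the difference was 0.03 ± 0.10 SE. NFKB2, the subunit of the alternative pathway, was read among the dimmest 30% of probe sets and differed by 0.09 ± 0.12 SE.

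The IkappaB proteins held the largest difference of the list. NFKBIZ stood at 9.64, 9.16, 9.51, 9.10 and 8.98 in control pools 1 to 5, and at 9.50, 9.75, 9.67, 9.69 and 9.66 in CLA pools 1 to 5. Of the CLA pools 4 lay above every control pool, while CLA pool 1 lay below control pools 1 and 3. The difference was 0.38 ± 0.12 SE (95% interval 0.11 to 0.64, unadjusted p = 0.00882 and adjusted p = 0.418 in limma). It stayed between 0.30 and 0.47 with any single pool left out, and its unadjusted p was between 0.00107 and 0.0237 over the 19 alternatives. Its adjusted p over those alternatives was never under 0.312. The control pools spread more (SD 0.28, n = 5) than the CLA pools (SD 0.093, n = 5).

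The second NFKBIZ probe set gave a smaller difference. It stood at 7.53, 7.36, 7.61, 7.60 and 7.77 in control pools 1 to 5 and at 7.71, 7.69, 7.58, 7.67 and 7.80 in CLA pools 1 to 5. The order of the control pools was not that of the first probe set: control pool 5 was the lowest there and the highest here. The difference was 0.12 ± 0.082 SE (unadjusted p = 0.18), and the mean of both probe sets differed by 0.25. The suffix of this probe set (_s_at) is the one the manufacturer gives to sets whose probes match more than a single transcript.

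NFKBIA, the classical inhibitor that is itself a rapid NF-kappaB target, stood at 8.69, 8.76, 8.76, 8.73 and 8.87 in control pools 1 to 5 and at 8.89, 8.55, 8.64, 9.05 and 8.72 in CLA pools 1 to 5. The CLA pools spread on both sides of the tight control pools (SD 0.20 against 0.067, n = 5 each), and the difference was 0.008 ± 0.094 SE. BCL3, like NFKBIZ a nuclear IkappaB protein, stood at 7.62, 7.47, 7.81, 7.61 and 7.78 in control pools 1 to 5. In CLA pools 1 to 5 it stood at 7.42, 7.48, 7.31, 7.71 and 7.55. CLA pools 1 and 3 lay below every control pool and the rest overlapped. The difference was -0.16 ± 0.092 SE (unadjusted p = 0.0987 and adjusted p = 0.635 in limma), and the second, dim BCL3 probe set differed by 0.04 ± 0.12 SE.

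**Figure D2:**
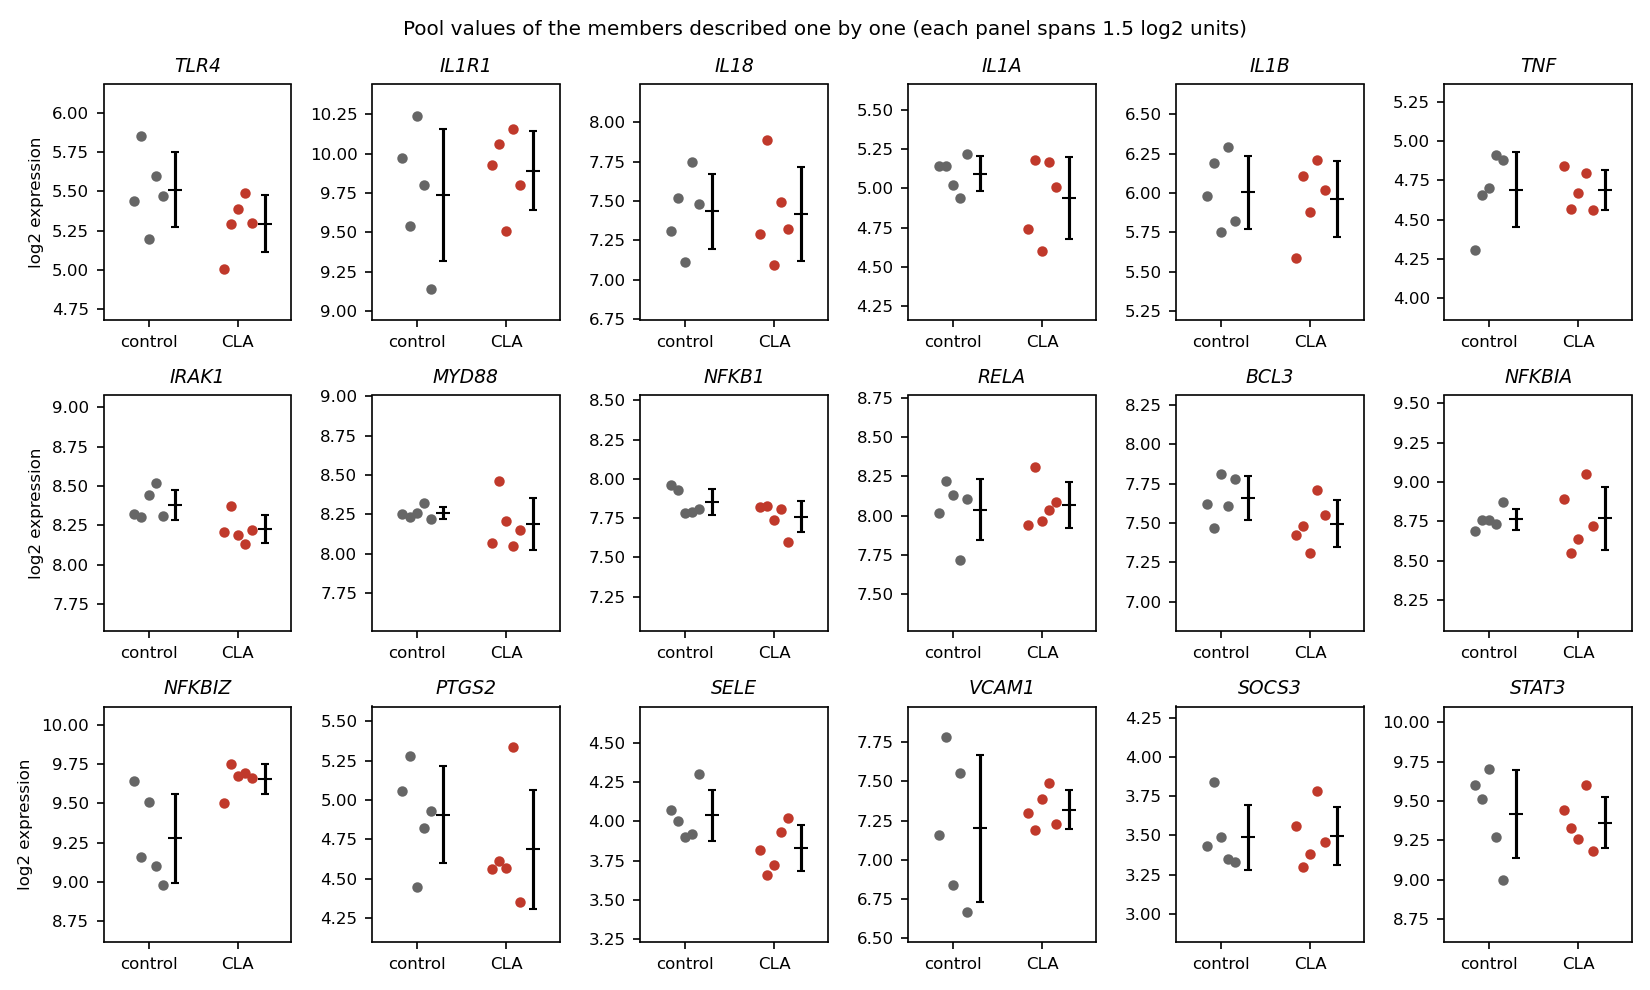
Log2 expression (vertical axis) of 18 members in the 5 control pools (grey) and 5 CLA pools (red), each point a pool in the order of its number, with the mean and SD in black. In NFKBIZ 4 CLA pools lie above every control pool, from 9.66 to 9.75, while in TNF all CLA pools lie inside the control range.

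The 6 target genes differed by -0.22 to 0.12. SELE, the selectin by which activated endothelium catches leukocytes, stood at 4.07, 4.00, 3.90, 3.92 and 4.30 in control pools 1 to 5 and at 3.82, 3.66, 3.72, 3.93 and 4.02 in CLA pools 1 to 5. CLA pools 1, 2 and 3 lay below every control pool. The difference was -0.21 ± 0.096 SE (unadjusted p = 0.051 and adjusted p = 0.562 in limma), and the unadjusted p was between 0.0238 and 0.131 over 18 alternatives, under 0.05 in 6 of them. The probe set lay among the dimmest 30%.

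PTGS2, the inducible cyclooxygenase of prostaglandin synthesis, stood at 5.06, 5.28, 4.45, 4.82 and 4.93 in control pools 1 to 5 and at 4.56, 4.61, 4.57, 5.34 and 4.35 in CLA pools 1 to 5. CLA pool 4 was the highest of all, and the other 4 CLA pools lay below 4 of the control pools. The difference was -0.22 ± 0.19 SE, and it was not stable to single pools. It was -0.39 without CLA pool 4 (unadjusted p = 0.0213), -0.34 without control pool 3 (unadjusted p = 0.086), -0.13 without control pool 2 (unadjusted p = 0.506) and -0.14 without CLA pool 5 (unadjusted p = 0.486). With array weights it was -0.088. The other 2 PTGS2 probe sets, both dim, differed by -0.09 and -0.06.

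VCAM1, an adhesion molecule of endothelium, stood at 7.16, 7.78, 6.84, 7.55 and 6.67 in control pools 1 to 5 and at 7.30, 7.19, 7.39, 7.49 and 7.23 in CLA pools 1 to 5. All CLA pools lay inside the control range, which was the widest of any group (SD 0.47 against 0.12 in the CLA pools, n = 5 each). The difference was 0.12 ± 0.18 SE, -0.0125 without control pool 5 and 0.27 without control pool 2. ICAM1, the companion adhesion molecule, differed by -0.01 ± 0.11 SE. TNFAIP6, a hyaluronan-binding protein induced by tumour necrosis factor, was dim and differed by -0.06 ± 0.076 SE at 1 probe set and by 0.15 ± 0.083 SE at the other. NOS2, the inducible nitric oxide synthase, was read by 4 probe sets, which differed by 0.05, -0.11, -0.08 and -0.04.

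STAT3, which carries the interleukin 6 signal in hepatocytes, stood at 9.60, 9.51, 9.70, 9.27 and 9.0 in control pools 1 to 5 and at 9.44, 9.33, 9.26, 9.60 and 9.18 in CLA pools 1 to 5. Control pools held both ends of the range, and the difference was -0.05 ± 0.13 SE. SOCS3, its feedback inhibitor, stood at 3.43, 3.84, 3.49, 3.35 and 3.33 in control pools 1 to 5 and at 3.56, 3.30, 3.38, 3.78 and 3.46 in CLA pools 1 to 5. Control pool 2 and CLA pool 4 were the high ones, and the difference was 0.008 ± 0.11 SE. Both SOCS3 probe sets lay among the dimmest 30%, and the second differed by -0.15 ± 0.11 SE.

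For 13 members more than 1 probe set carried the symbol. Of the 17 further probe sets 9 had the sign of the brightest and 8 the opposite sign. None of them had an unadjusted p under 0.05 in limma, and 10 lay among the dimmest 30% of probe sets. Of the 34 brightest probe sets 6 lay there, those of IL6, NFKB2, TNFAIP6, SELE, SOCS3 and TLR5.

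Between pools of the same group the members varied by an SD of 0.079 to 0.347, with a median of 0.174, against a median of 0.145 over all genes. IL1R1, PTGS2 and VCAM1 varied most. The SD was larger among the control pools for 19 members and among the CLA pools for 15, and 55.3% of all genes had the larger SD in the control pools. The pool that was highest of the 10 differed from gene to gene. CLA pool 2 was the highest in 8 members, control pool 4 in 7 and control pool 2 in 6, and control pool 5 was the lowest in 8. In the receptors TLR2, TLR3, TLR4 and TLR5 the highest pool was each time control pool 2.

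**Figure D3:**
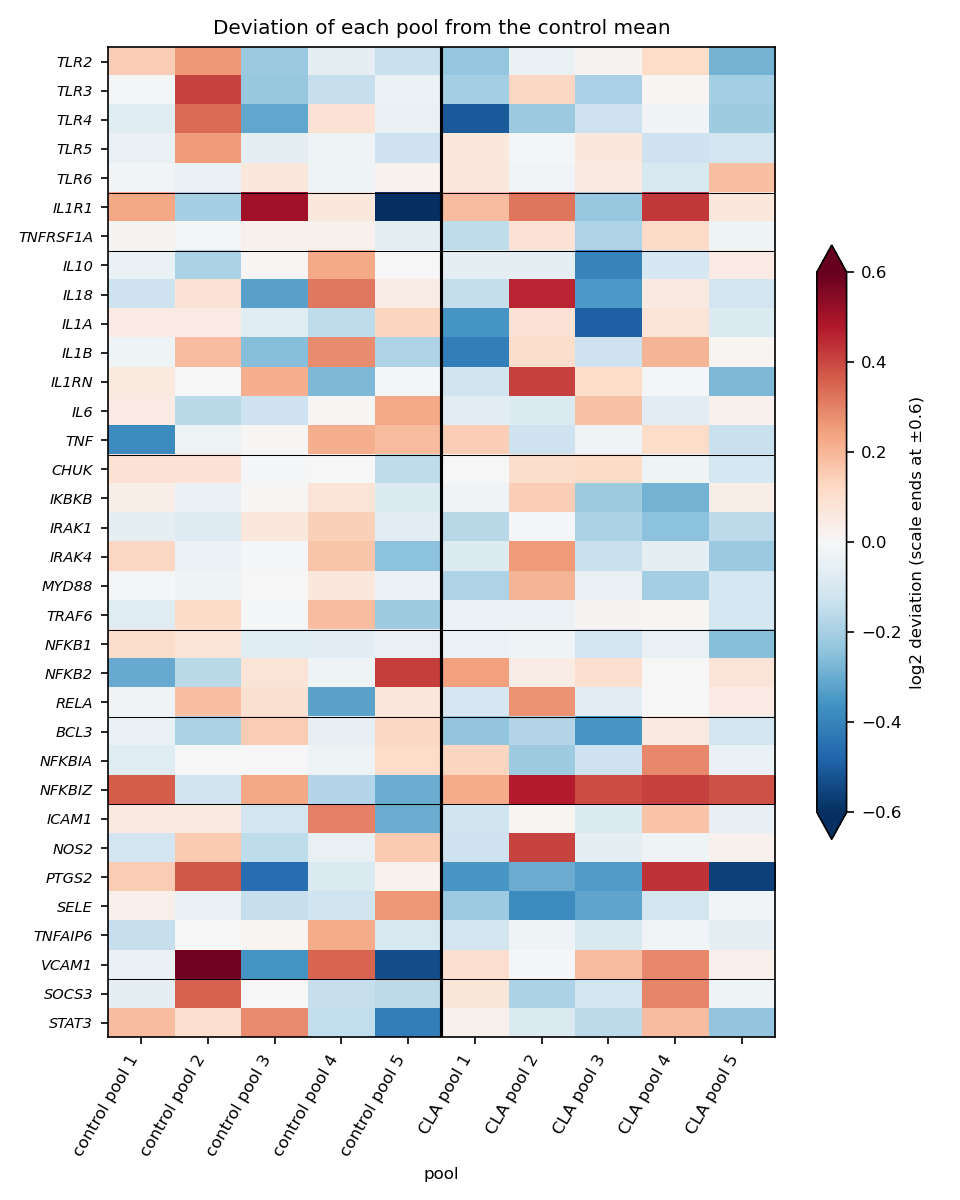
Deviation of each pool (columns, control pools left of the line) from the control mean of each member (rows, ordered by role), in log2 units with blue below and red above and the colour scale ending at 0.6 either way. NFKBIZ is red in all 5 CLA pools, TLR2 to TLR5 are highest in control pool 2, and no pool is red or blue throughout.

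Co-variation was examined for 6 relations with the group means removed, by exact permutation of the pools within groups. The closest was that of IL1B with the mean of 5 neutrophil markers (S100A8, S100A9, S100A12, MPO and MMP9), which neutrophils carry in their granules and cytosol. Over the 10 pools Pearson's r was 0.769 (exact permutation p = 0.0104, or 0.0624 with Benjamini-Hochberg adjustment over the 6 relations), and Spearman's rho was 0.721 (exact permutation p = 0.0267, adjusted 0.146). Without CLA pool 1 and control pool 4, the pools farthest from the median of IL1B, r was 0.659 with the group means taken again over the 8 pools left. The relation missed the threshold after adjustment. Without CLA pool 1 r was 0.581 (exact permutation p = 0.0844, adjusted 0.209), the lowest of 13 alternatives. The adjusted exact permutation p was 0.0354 without control pool 1 (r = 0.795) and 0.0447 without CLA pool 4 (r = 0.753). The marker mean was not scaled by gene, and S100A12 ranged over 1.59 between the 10 pools, against 0.31 for S100A9. MMP9 was read among the dimmest 30% of probe sets and is also listed among the NF-kappaB targets. It was lowest in control pool 4 (3.49), where IL1B was highest (6.29). The relation of IL1B with each marker alone was not tested. In biopsies a pool with more neutrophils and a pool with more of these transcripts per cell cannot be told apart, and this holds for every gene here that only some of the liver's cells express.

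**Figure D4:**
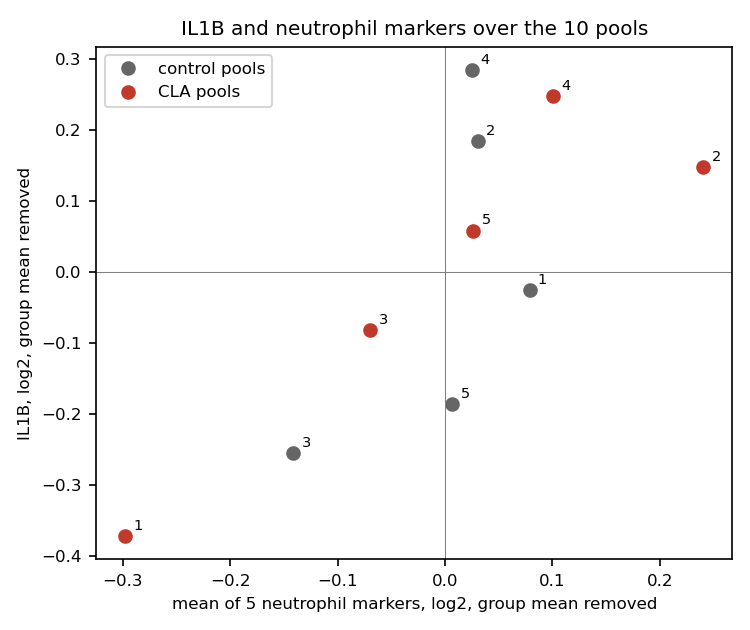
IL1B (vertical axis) against the mean of 5 neutrophil markers (horizontal axis), both in log2 units with the mean of each group removed, for control pools (grey) and CLA pools (red) labelled with their numbers. CLA pool 1 is lowest in both, and over the 10 pools r is 0.769.

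Of the other 5 relations 0 passed after adjustment over the 10 pools. SOCS3 and STAT3 had r = 0.569 (exact permutation p = 0.122) and rho = 0.612 (exact permutation p = 0.0858). SOCS3 and the mean of 15 acute phase genes had r = 0.521 (exact permutation p = 0.133) and rho = 0.685 (exact permutation p = 0.0488). Both relations of SOCS3 had adjusted p of 0.2 for r. The acute phase mean was not scaled by gene, and HP (haptoglobin) ranged over 5.36 between the 10 pools, against 0.05 for C3. SOCS3 itself was read among the dimmest 30% of probe sets. TLR4 and the mean of 9 Kupffer cell and macrophage markers had r = 0.54 (exact permutation p = 0.171) and rho = 0.491 (exact permutation p = 0.209), with adjusted p of 0.205 and 0.251. Without control pool 3 this r was 0.279 (exact permutation p = 0.525, adjusted 0.63), and without control pool 1 it was 0.75 (exact permutation p = 0.0483, adjusted 0.145). NFKBIA and NFKBIZ had r = -0.337 (exact permutation p = 0.125) and rho = -0.401 (exact permutation p = 0.149), with r of -0.223 without control pool 5 (adjusted exact permutation p = 0.38) and of -0.578 without CLA pool 4 (adjusted exact permutation p = 0.0447). IL1B and IL1RN had r = -0.131 (exact permutation p = 0.74) and rho = -0.236 (exact permutation p = 0.532). Without the 2 pools farthest from the median of the first gene, and with group means taken over the 8 left, r was 0.592 for SOCS3 with STAT3 and 0.554 for SOCS3 with the acute phase genes. It was 0.702 for TLR4 with its markers, -0.584 for NFKBIA with NFKBIZ and -0.118 for IL1B with IL1RN. Over the 13 alternatives r lay between 0.448 and 0.692 for SOCS3 with STAT3, between 0.465 and 0.586 for SOCS3 with the acute phase genes and between -0.431 and 0.128 for IL1B with IL1RN.

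Beyond the members, 77 further genes of these pathways and their targets were measured, of 110 symbols listed. In limma with Benjamini-Hochberg adjustment 0 of the 77 passed in either direction. At an unadjusted p under 0.05 in limma, 2 of the 77 were higher and 4 lower in the CLA pools, against 4.35% and 4.15% of all genes. The groups did not overlap in 1 gene with the CLA pools above and 1 with them below, against 1.47% and 0.699% of all genes. Of the 77 genes, 34 had a mean above and 43 a mean below the control mean, beside 46% and 53.2% of all genes. After subtraction of array medians that split was 42 above and 35 below. Their median difference was -0.022.

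Of 17 genes on the Toll-like receptor side, IKBKE, a kinase of the interferon branch, differed by -0.26 ± 0.098 SE and by -0.13 at its second probe set. PELI1, a ubiquitin ligase that acts with IRAK kinases, differed by 0.21 ± 0.11 SE, with -0.14 and -0.06 at its other probe sets. SIGIRR, an inhibitory receptor of this family, differed by -0.14 ± 0.075 SE. RIPK2, the kinase below the NOD receptors, differed by -0.13 ± 0.094 SE and MAVS, an adaptor of RNA sensing, by 0.10 ± 0.085 SE.

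On the interleukin 1 and NF-kappaB side 25 genes were measured. IL1RAP, the co-receptor that IL1R1 needs to signal, stood at 10.20, 10.18, 10.10, 10.13 and 10.11 in control pools 1 to 5 and at 10.25, 10.19, 10.38, 10.44 and 10.47 in CLA pools 1 to 5. CLA pool 2 alone reached into the control range, and the difference was 0.20 ± 0.072 SE (adjusted p = 0.456 in limma). Its dimmer probe sets differed by 0.01 and 0.07. TAB2, which links TRAF6 to the kinase TAK1, differed by 0.16 ± 0.062 SE with no overlap between the groups, and by 0.19 ± 0.17 SE at its second probe set. NFKBID, another nuclear IkappaB protein, differed by -0.27 ± 0.10 SE, so that the 3 measured nuclear IkappaB genes did not go 1 way. LTBR, the lymphotoxin beta receptor, differed by 0.13 ± 0.071 SE. BIRC3, a ubiquitin ligase induced by NF-kappaB, had a difference of 0.25 ± 0.14 SE at the brighter probe set and of -0.23 ± 0.19 SE at the other.

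On the interleukin 6 and interleukin 10 side 0 of 10 genes had an unadjusted p under 0.05 in limma, and 0 passed after adjustment. SOCS2, a feedback inhibitor of growth hormone signalling, differed by 0.33 ± 0.18 SE and CISH, a relative of it, by 0.15 ± 0.11 SE. OSMR, the oncostatin M receptor, differed by 0.09 ± 0.12 SE, while PIAS3 and STAT5B each differed by -0.04. Of 25 further NF-kappaB targets, CCL3, a macrophage chemokine, differed by -0.36 ± 0.089 SE with no overlap between the groups. Its 2 other probe sets differed by -0.05 and 0.05. TNFSF13B, a B cell survival factor, differed by -0.31 ± 0.12 SE and lay among the dimmest 30% of probe sets. The chemokines CCL20 and CCL5 differed by -0.15 ± 0.088 SE and -0.23 ± 0.15 SE, and PLAU, the urokinase gene, by -0.17 ± 0.12 SE.

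Acute phase proteins are among the hepatic products of this signalling. Whether each listed gene answers it in cows was not tested. Of 15 measured genes 8 had a mean above and 7 a mean below the control mean, with a median of 0.044, and 0 passed after adjustment. The spread between pools was uneven, from an SD of 0.014 among the control pools for C3 (0.015 among the CLA pools) to 2.13 for haptoglobin, HP (1.59 among the CLA pools, n = 5 each). APCS, serum amyloid P, differed by -0.31 ± 0.13 SE (unadjusted p = 0.0296 and adjusted p = 0.513 in limma). The fibrinogen genes FGG and FGB differed by 0.10 ± 0.064 SE and 0.21 ± 0.14 SE. ITIH3 differed by -0.14 ± 0.094 SE, and SAA3, a serum amyloid A gene, by -0.31 ± 0.40 SE.

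The hepatocyte markers ALB, APOA1, TTR, SERPINA1, FGB, CPS1 and TAT were all measured in these liver samples, and 0 of the 7 lay among the dimmest 30% of probe sets. All 7 had a higher mean in the CLA pools, as did 7 of 7 after subtraction of array medians, 5 of 7 with quantile and 4 of 7 with cyclic loess normalization. Their summed level lay between 16.40 and 16.51 in the control and 16.46 and 16.52 in the CLA pools on the log2 scale. Of 9 Kupffer cell and macrophage markers 7 had a lower mean in the CLA pools. That number was 8 with quantile or cyclic loess normalization and 4 once array medians were subtracted. Their summed level lay between 13.88 and 14.31 in the control and 14.06 and 14.26 in the CLA pools. Of 11 T and NK cell markers 11 had a lower mean in the CLA pools, under each of the 3 other scalings too, with a summed level of 10.02 to 10.54 against 9.90 to 10.19, and 0 passed after adjustment in limma. In 1 of the 11, ZAP70, the groups did not overlap, against 0.699% of all genes with the CLA pools below. It differed by -0.44 ± 0.11 SE (unadjusted p = 0.00171 and adjusted p = 0.332 in limma). Beside the counts of higher and lower means, 53.2% of all genes had a lower mean in the CLA pools and 46% a higher one. After subtraction of array medians 3853 of 9155 genes were lower and 5302 higher. All 5 erythroid markers had a lower mean (4 of 5 with quantile normalization), among them HBA, whose dim probe set did not overlap between the groups. Of 4 B and plasma cell markers 3 had a lower mean, and 2 under each of the 3 other scalings. The erythroid markers summed to 6.83 to 7.40 in the control and 6.74 to 7.21 in the CLA pools, and the B and plasma cell markers to 10.32 to 10.82 and 10.12 to 10.94. The neutrophil markers summed to 8.54 to 9.02 in the control and 8.43 to 9.31 in the CLA pools, and the 9 endothelial markers to 11.43 to 11.84 and 11.46 to 11.73. The part of cell content in the differences of TLR4, IL1A, SELE and BCL3 was not tested.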

How the data were processed

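Measurements start from the log2 values that the authors deposited for each probe set and array. Expression Console 1.1 from Affymetrix and the RMA method are listed, without order or settings, per the submitters' processing notes, and a genome build is not given in the sources used here. Of 24128 probe sets 112 manufacturer controls were left out. The platform annotation gave 13292 of the remaining 24016 a single gene symbol, 86 several and 10638 none. All 34 members were found in RefSeq (ARS-UCD2.0) under the same symbol. No detection calls were used. Precision is limited by how many arrays there were. The limma p-values set a difference against the spread between pools only, with variances moderated over all probe sets.

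Pool titles gave the groups. Array medians lay between 5.79 and 5.85 and array correlations between 0.988 and 0.996, with 0 identical pairs. The labels name no batch. The model, run in R 4.3.3 with limma 3.58.1 (lmFit, then eBayes), took all 10 arrays and had no covariate. Alternatives were other normalizations, a filter on dim probe sets, averaged probe sets, array weights, other variance estimates, the pool number as a block and each pool left out. Relations were tested over all 14400 permutations within groups. The fit was tested on simulated data of 24016 probe sets, of which 200 were changed, 50 each by 1.3-fold, 1.5-fold, 2-fold and 3-fold. At an adjusted p under 0.05, 34%, 66%, 90% and 96% of these were recovered in turn, and 10 unchanged ones were called. The adjustment depends on how many probe sets change. These shares therefore do not give the chance of finding a single changed member in the deposited data, where 0 probe sets passed.

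Members and lists were chosen with earlier results of these data known. Pool values are given for members with an unadjusted p under 0.05 or groups without overlap, the 8 of largest difference, the 5 of widest range, and TLR4, MYD88, NFKB1, RELA, NFKBIA, TNF, IL1B, SOCS3 and STAT3. From each list of other genes the 5 of smallest p are named. C3, HP and HBA were named, and S100A9, S100A12, MMP9 and ZAP70 singled out, after their values were seen. No sequence is shown, since the tables used here hold none.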

Additional observations from a re-analysis of the deposited data

Results flagged for a closer look

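In 3 of 68 combinations of a member and a group, 1 pool stood far from the other 4 by Dixon's criterion (0.71 for 5 values), about the 1 in 20 that chance gives. PTGS2 in CLA pool 4 was 5.34, with the other CLA pools between 4.35 and 4.61, and without it the difference was -0.39. NOS2 in CLA pool 2 was 6.36, with the others between 5.83 and 5.98, and without it the difference turned from 0.046 to -0.044. TLR5 in control pool 2 was 3.99, with the others between 3.61 and 3.71, and without it the difference was 0.04.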

How the results depend on the processing

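With any of the 19 alternatives, 0 members and 0 probe sets had an adjusted p under 0.05, also with 1 probe set per gene. NFKBIZ kept its direction and an unadjusted p under 0.05 in all 19. The count of members at that threshold was 1 to 4 with single pools left out, against 6.42% to 9.45% of all genes. It was 2 with the replicate block, after quantile or cyclic loess normalization, in the unmoderated test, with array weights and with averaged probe sets. In those fits the share of all genes was 8.07% to 9.24%. Members without overlap numbered 0 to 2 with single pools left out, 1 after cyclic loess normalization and 1 with the mean of probe sets. The share of all genes without overlap is not given for any of these fits, so these counts cannot be set against it. The median difference was -0.080 to -0.0065 with single pools left out and 0 after subtraction of array medians. For 15 of 34 members the direction held in every alternative, and for 19 it changed in at least 1. The pool numbers did not pair the samples: correlations of same-numbered deviations lay between -0.0855 and 0.0925, and with the number as a block SELE joined NFKBIZ under the unadjusted threshold, while no adjusted call changed. Alternatives for the 6 relations were chosen after seeing the data. The cause of these changes was not tested.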
